A study of Rattus norvegicus with 6 samples.

Results

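The Notch genes described here are 10 genes of 1 signalling pathway: the receptors Notch1, Notch2 and Notch3, the ligands Dll1, Dll3 and Jag1, the receptor-modifying enzyme Lfng, and the nuclear effectors Hes1, Hes5 and Hey1. They were chosen by gene symbol, as every probe set that the platform annotation assigns to 1 of these names, which gave 10 of the 14217 genes that have a probe set with 1 symbol, and 12 of the 31099 probe sets on the array. Notch1 and Hes5 have 2 probe sets each and the other genes 1. The samples were rat cortical neuronal progenitor cells, which divide and give rise to neurons and glia; they came from embryos at E15.5 and were grown on fibronectin with 20 ng/ml of the mitogen bFGF. The vehicle group (3 samples) received DMSO and the corticosterone group (3 samples) received corticosterone at 1 µM for 48 h, as long as the vehicle; corticosterone is the principal glucocorticoid hormone of rats. All 6 samples share the medium, the mitogen and the substrate, and no strain is given in the sources used here. Each sample was read on 1 Affymetrix array, and the samples form couples 1, 2 and 3, each of 1 vehicle and 1 corticosterone sample. Whether a couple is a separate culture or animal is not stated, so p-values measure the spread between these samples, which may be technical.

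Notch signalling passes between cells that touch. A Delta or Jagged ligand on 1 cell binds a Notch receptor on its neighbour, an ADAM protease and then γ-secretase cut the receptor, and the freed intracellular part joins the DNA-binding protein RBPJ and switches on Hes and Hey genes. Hes proteins are basic helix-loop-helix repressors that hold down proneural genes and Delta ligands, and in the embryonic cortex this keeps neighbouring cells as progenitors while cells that express Delta become neurons. Lunatic fringe, encoded by Lfng, adds sugar to the receptor and shifts its response between Delta and Jagged ligands.

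Signals are linear MAS5 intensities as deposited, scaled so that the arrays share 1 trimmed mean. The median signal over all probe sets was 108 to 122 on vehicle arrays and 124 to 134 on corticosterone arrays. Markers of neural progenitors were well above the background signal of 22.8, with Fabp7, a radial glial fatty acid binding protein, at 20415 to 23779 and the transcription factor Sox2 at 7528 to 9935, and 2 of the 7 tested rose, Nes and Slc1a3. Of the 5 astrocyte markers tested 4 rose, S100b, Aldoc, Gja1 and Sparcl1, while Gfap did not pass (0.58, limma adjusted p = 0.13). Aqp4, Slc1a2 and Aldh1l1 lay below the filter on low signals. The sum over 8 genes went from 16240 to 21440 with vehicle to 28980 to 36160 with corticosterone. Most of it was Sparcl1 (10369 to 12754 and 16581 to 19885) and Gja1 (4643 to 7577 and 8641 to 12918.5). Of 8 neuronal markers 1 fell, Tubb3. The log2 difference was negative for 7 of them and positive for 1 (median −0.20). The summed signals overlapped (11640 to 12570 and 8778 to 12460), and Map2 was most of them (8287 to 9361 and 6307 to 9514). Of 4 oligodendrocyte precursor markers tested 1 fell, Pdgfra (log2 difference −1.64, limma adjusted p = 2.9e-05), and all 4 had a negative difference (median −0.30). The sums over 5 genes overlapped (19940 to 24480 and 16620 to 23030), and Olig1 was most of them (16971 to 20049 and 15022 to 20513). Of 3 microglia and macrophage markers tested 1 rose, Cd14 (1.09, limma adjusted p = 0.0043). The sums over 7 genes, low throughout, did not overlap (285 to 318 and 443 to 612.5). Cd14, at 84.0 to 106 and 166 to 337, gave the largest part of this difference. Aif1 and Cd68 did not pass, and the other 4 lay below the filter. Of 7 pericyte, smooth muscle and fibroblast markers tested 2 rose, Acta2 and Col1a2, and all 7 had a positive log2 difference (median 0.32). The sums over 12 genes overlapped as well (578 to 1854 and 916 to 3366), both highest in couple 2. There Col3a1 read 577 with vehicle and 928 with corticosterone. Of the 5 below the filter, Tagln read 2.33, 5.43 and 6.54 with vehicle and 104, 298 and 61.9 with corticosterone. It was not tested, and in the others below the filter the groups overlapped. Of 9 endothelial markers 8 lay below the filter on low signals, with Vwf at or under background on all 6 arrays and Pecam1 on 5. In such bulk samples fewer cells of a type and less RNA per cell cannot be told apart.

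Corticosterone raised 3 of the 10 genes and lowered 2, while 5 did not pass. Lfng, Jag1 and Hey1 rose, Dll1 and Dll3 fell, and Notch1, Notch2, Notch3, Hes1 and Hes5 did not pass. Over all 9910 genes tested 19.5% passed, 11.7% as higher and 7.77% as lower. Of the members 5 of 10 (50%) passed, a share above this background. The set is small and was chosen with earlier results of these data known, so the share says nothing more about it. The test was limma on log2(signal + 28.6) with couple as a term, and a gene passed at a Benjamini-Hochberg adjusted p under 0.05 over the 18625 probe sets tested. The signals of the groups did not overlap for 1 member, Lfng, with corticosterone higher (14.8% of all genes) and for 0 members with vehicle higher (11.4%). The median log2 difference of the members was 0.20, against −0.002 over all genes tested. Without couple as a term 0 of the 10 members passed in limma, where at an unadjusted p under 0.05 there were 2 higher and 0 lower, so every call here rests on differences within couples. Without the intensity trend in the variance 1 member, Lfng, passed.

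**Figure D1:**
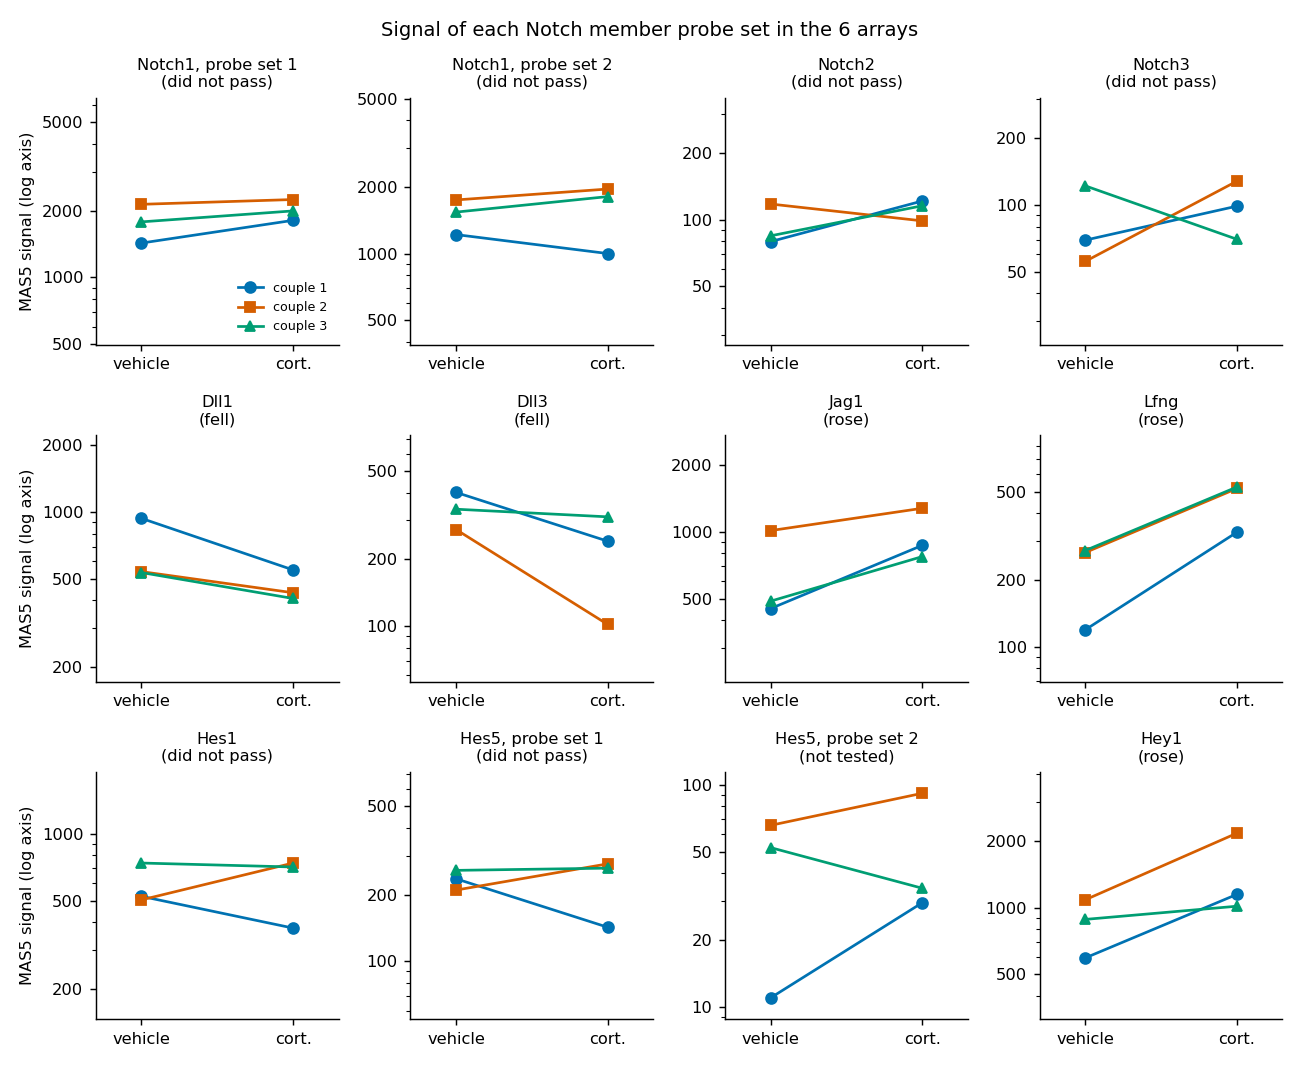
Signal of each of the 12 probe sets (MAS5 units, log axis) with vehicle and corticosterone, 1 point per array and 1 line per couple; every panel spans the same ratio from bottom to top. The 3 lines of Lfng, Jag1 and Hey1 slope up and those of Dll1 and Dll3 slope down, while in Notch2, Notch3, Hes1 and Hes5 some lines slope up and others down.

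The start regions of 4 members are printed because they carry the motif through which RBPJ is known to act, and because these 4 genes did not move alike: Lfng rose, Dll1 fell, and Hes1 and Hes5 did not pass. Each is the 250 bases before the annotated start, 5′ to 3′ on the gene's strand, from RefSeq on build GRCr8, with the RBPJ core in capitals (TGGGAA, or TTCCCA where the core lies on the other strand). Lfng is at chr12:19152919-19153168 (minus strand), Dll1 at chr1:64993275-64993524 (minus strand), Hes1 at chr11:84213046-84213295 (minus strand) and Hes5 at chr5:170804327-170804576 (plus strand).
Lfng: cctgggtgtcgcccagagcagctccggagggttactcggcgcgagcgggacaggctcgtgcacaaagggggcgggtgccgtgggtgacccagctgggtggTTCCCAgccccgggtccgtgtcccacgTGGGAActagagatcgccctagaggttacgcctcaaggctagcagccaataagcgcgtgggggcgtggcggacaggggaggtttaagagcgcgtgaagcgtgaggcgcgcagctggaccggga
Dll1: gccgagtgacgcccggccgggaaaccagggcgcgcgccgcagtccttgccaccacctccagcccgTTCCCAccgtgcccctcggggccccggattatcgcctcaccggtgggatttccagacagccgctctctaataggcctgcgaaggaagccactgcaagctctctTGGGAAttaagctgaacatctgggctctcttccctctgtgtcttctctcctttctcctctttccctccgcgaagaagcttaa
Hes1: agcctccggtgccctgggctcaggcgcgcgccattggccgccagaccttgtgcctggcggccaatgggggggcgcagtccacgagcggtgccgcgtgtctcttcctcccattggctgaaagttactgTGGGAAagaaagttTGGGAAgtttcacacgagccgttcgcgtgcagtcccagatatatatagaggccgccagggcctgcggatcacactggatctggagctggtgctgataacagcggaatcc
Hes5: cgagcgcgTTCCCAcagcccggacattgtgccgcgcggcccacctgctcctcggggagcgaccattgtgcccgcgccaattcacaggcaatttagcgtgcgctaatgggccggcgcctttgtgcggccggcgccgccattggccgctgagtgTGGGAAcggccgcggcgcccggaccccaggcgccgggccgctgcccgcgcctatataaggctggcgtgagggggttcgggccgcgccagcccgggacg

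Each of these 4 windows holds the RBPJ core at 2 places. In Hes1 both lie on the gene's strand, from −123 to −118 and from −109 to −104 counted from the start. In Lfng they face opposite ways, at −150 to −145 and −123 to −118, as they do in Dll1 (−185 to −180 and −82 to −77) and Hes5 (−242 to −237 and −98 to −93). Windows were found for 9 members (all but Hey1), and the other 5, those of Notch1, Notch2, Notch3, Dll3 and Jag1, hold no TGGGAA on either strand. Of all 33469 RefSeq start windows of this length 22.1% hold the core at least once and 2.71% at least 2 times. A short motif of the glucocorticoid receptor (AGAACA, 1 arm of its palindromic site, either strand) was in 0 of the 9 windows and in 17.5% of all windows. The N box bound by Hes repressors (CACNAG, either strand) was in 4 of the 9, at 4 places each in Hes1 and Notch1 and 1 each in Lfng and Notch3, and in 37.2% of all windows; 2 of the Notch1 matches overlap. A match describes the letters only, and no binding was measured here.

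**Figure D2:**
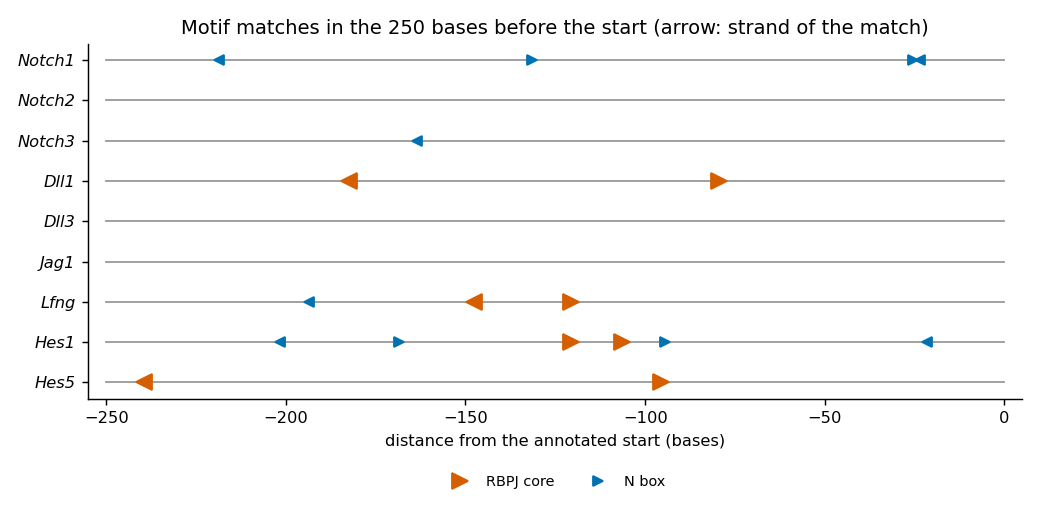
Position of each motif match in the 250 bases before the annotated start of 9 members, in bases from the start; large orange arrows are the RBPJ core, small blue arrows the N box, and an arrow points along the strand of the match. The RBPJ core appears in Dll1, Lfng, Hes1 and Hes5, 2 times in each.

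Receptor transcripts did not pass. Notch1, the main receptor of cortical progenitors, had vehicle signals of 1429, 2137 and 1781 in couples 1, 2 and 3 and corticosterone signals of 1809.6, 2246 and 1996, on probe set 1371491_at; signals below follow this order of couples. It was higher in each couple, by 0.07 to 0.33 on the log2 scale, but the groups overlapped, and the log2 difference of 0.19 ± 0.08 (SE) did not pass (limma adjusted p = 0.12). Its second probe set, 1390426_at, read 1217, 1744 and 1537 with vehicle and 999.6, 1953 and 1806 with corticosterone, lower in couple 1 and higher in the others (0.04 ± 0.10, adjusted p = 0.84). The 2 probe sets thus disagree in sign in couple 1.

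Notch2 and Notch3 were dim, near the filter on low signals at 63.6. Notch2, a receptor also found on radial glia, read 79.5, 117 and 84.4 with vehicle and 121, 98.6 and 115 with corticosterone, and couple 2 ran against the others. Its log2 difference was 0.21 ± 0.19 (SE; limma adjusted p = 0.52, 95% interval −0.21 to 0.63). Notch3, a receptor best known from pericytes and vascular smooth muscle, read 69.5, 55.8 and 122 with vehicle and 99.0, 128 and 70.2 with corticosterone, higher in couples 1 and 2 and lower in couple 3. Its difference of 0.22 ± 0.26 (adjusted p = 0.62) had a 95% interval from −0.35 to 0.79. Both intervals run from a fall to a rise, so a direction for these dim receptors was not measurable with 3 couples.

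Lfng had the largest rise of the 10. It read 119, 266 and 271 with vehicle and 328, 517 and 525 with corticosterone (means 219 ± 86.3 and 457 ± 111, SD, n = 3 arrays per group). Every corticosterone array lay above every vehicle array, and couple 1 was the lowest of both groups. The log2 difference was 1.02 ± 0.13 (SE; limma adjusted p = 3.4e-04), a 2.02-fold rise on the log2(signal + pseudocount) scale. The differences in couples 1, 2 and 3 were 1.27, 0.89 and 0.88, closer together than in the other 4 members that passed. It passed with each couple left out (0.89 to 1.08) and after centring each array on its median (0.91), but not without couple as a term (adjusted p = 0.13). Neither of the other fringe enzymes passed. Mfng read 97.8 to 171 with vehicle and 114 to 169 with corticosterone (0.11, limma adjusted p = 0.70). Rfng read 704 to 797 with vehicle and 641 to 788 with corticosterone, lower in each couple (−0.08, adjusted p = 0.57).

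Among the ligands, Jag1 rose and both Delta-like members fell. Jag1, the Jagged ligand of neural progenitors and astrocytes, read 450.4, 1012 and 486 with vehicle and 869, 1277 and 773 with corticosterone (649.7 ± 314 and 973 ± 267). The vehicle array of couple 2 exceeded the corticosterone arrays of couples 1 and 3, so the groups overlapped, and the rise was seen within couples, by 0.91, 0.33 and 0.64. The log2 difference was 0.62 ± 0.11 (SE; limma adjusted p = 0.0031). In the same comparison 4 of 5 astrocyte markers tested rose, Gfap not among them, and their part in the rise of Jag1 was not tested.

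Dll1, the Delta ligand carried by cells that turn into neurons, read 938, 539 and 534 with vehicle and 549, 433 and 408 with corticosterone (670.4 ± 232 and 463 ± 75.1). Couple 1 was highest in both groups, and its corticosterone array lay above the vehicle arrays of couples 2 and 3. The log2 difference was −0.47 ± 0.11 (SE; limma adjusted p = 0.014), with −0.74, −0.30 and −0.37 in the couples. The call ended without couple 1 (−0.33, adjusted p = 0.14). In the same comparison 1 of 8 neuronal markers fell (Tubb3) and 1 of 4 oligodendrocyte precursor markers (Pdgfra, in each couple, by −2.14, −1.23 and −1.54), and their part in the fall of Dll1 was not tested.

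Dll3, a Delta-like protein that does not activate Notch in neighbouring cells and is known as an inhibitor within the cell, read 401, 273 and 337 with vehicle and 242, 102 and 311 with corticosterone (337 ± 64.2 and 218 ± 107). It was lower in each couple, by amounts that differed widely: −0.67, −1.21 and −0.11. The log2 difference was −0.66 ± 0.18 (SE; limma adjusted p = 0.0299). The call ended without couple 1 (−0.66, adjusted p = 0.070), without couple 2 (−0.39, adjusted p = 0.25) and with no filter on low signals (adjusted p = 0.11).

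Within couples the change of Jag1 exceeded that of Dll1 by 1.65, 0.63 and 1.00 on the log2 scale (mean 1.09 ± 0.52, SD, n = 3 couples). It exceeded the change of Dll3 by 1.58, 1.54 and 0.74. These pairs were chosen for their opposite calls, so the differences are a description and were not tested.

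**Figure D3:**
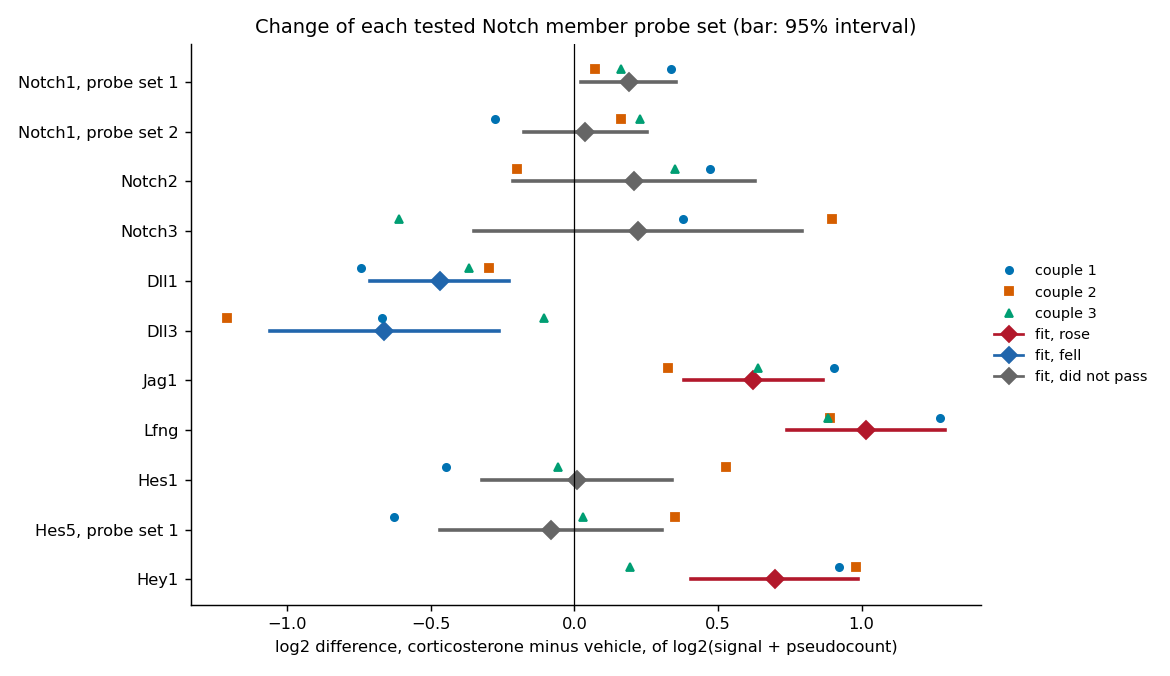
Log2 difference, corticosterone minus vehicle, of the 11 member probe sets tested; diamonds and bars are the fitted value and its 95% interval, small symbols the 3 couples. The bars of Lfng, Jag1 and Hey1 lie above 0, those of Dll1 and Dll3 below, and the couples of Hes1, Hes5 and Notch3 scatter on both sides of 0.

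Hes1 and Hes5, the classic Notch targets of cortical progenitors, did not pass. Hes1 read 523, 504 and 739 with vehicle and 376, 739 and 709 with corticosterone, with a log2 difference of 0.01 ± 0.15 (SE; limma adjusted p = 0.98, 95% interval −0.32 to 0.34). Hes5 read 236, 209.5 and 257 with vehicle and 142, 275 and 263 with corticosterone on probe set 1368942_at (−0.08 ± 0.18, adjusted p = 0.80, 95% interval −0.47 to 0.30). Both genes went down in couple 1 (Hes1 by −0.45, Hes5 by −0.63) and up in couple 2 (0.53 and 0.35), and lay near 0 in couple 3 (−0.06 and 0.03). The differences in couples 1 and 2 reach beyond the fitted intervals, which rest on a spread drawn towards that of probe sets with similar signals. Some couples of Jag1, Dll1, Dll3 and Hey1, which passed, also lay outside their intervals. The second probe set of Hes5, 1375713_at, was below the filter and not tested, at 11.0, 65.7 and 52.2 with vehicle and 29.4, 91.7 and 34.2 with corticosterone; in couples 1 and 3 it moved against the first.

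Hey1, a Hes-related repressor that Notch and BMP signals both induce, rose. It read 593, 1085 and 885 with vehicle and 1148, 2168 and 1015 with corticosterone (855 ± 247 and 1444 ± 631). The array of couple 2 was highest in both groups, and 1 corticosterone array, that of couple 3, lay below the highest vehicle array. The log2 difference was 0.70 ± 0.13 (SE; limma adjusted p = 0.0045), with 0.92, 0.98 and 0.19 in the couples. The call ended without couple 2 (0.56, adjusted p = 0.083). As a description, with the pairs chosen after their values were seen, the change of Hey1 exceeded that of Hes1 by 1.37, 0.45 and 0.25 on the log2 scale in the couples, and that of Hes5 by 1.55, 0.63 and 0.16.

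The couples differed in a sign of RNA integrity, the 3′ signal of Actb over its 5′ signal, which was 1.55 and 1.76 in couple 1 (vehicle and corticosterone), 2.11 and 2.0 in couple 2 and 2.12 and 2.03 in couple 3. The rises of Lfng and Jag1 and the fall of Dll1 were largest in couple 1, and the rise of Hey1 and the fall of Dll3 in couple 2. The part of RNA integrity in these differences was not tested.

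Most of the other pathway genes did not pass. Of 61 further Notch pathway genes 49 had a probe set with 1 gene symbol and 42 were tested; 5 rose, 0 fell and 37 did not pass in limma (at an unadjusted p under 0.05, 9 were higher and 5 lower). The 5 of 42 that rose are close to the 11.7% of all genes that did, and the median log2 difference was 0.01. The core that cuts the receptor and reads it in the nucleus gave small values. All 5 tested genes of ADAM and γ-secretase cleavage failed to pass, between −0.05 and 0.16, among them the γ-secretase subunit Psenen (−0.05, adjusted p = 0.70). Rbpj, which encodes the DNA-binding partner of Notch, read 2530.5 to 2645 with vehicle and 2473 to 2693 with corticosterone (0.003, adjusted p = 0.99, 95% interval −0.14 to 0.15).

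The corepressors and modifiers were mixed. Of 15 genes of the nuclear complex 1 rose: Tle1, a Groucho corepressor recruited by Hes proteins, read 406, 369.7 and 408 with vehicle and 677, 532 and 545 with corticosterone, without overlap (0.53 ± 0.10, SE; limma adjusted p = 0.0057). The corepressors Ctbp1 and Ctbp2 were at −0.02 and −0.17 (adjusted p = 0.87 and 0.081), and Ctbp2 passed as lower with median centring (−0.28, adjusted p = 0.017). Of 10 genes of ubiquitination and endocytosis 1 rose, Numbl, an adaptor that with Numb restrains the receptor, from 194, 188 and 253 to 307, 288 and 293 (0.44 ± 0.13, adjusted p = 0.044), and the ubiquitin ligase gene Nedd4 was at 0.13 (adjusted p = 0.15). Of 4 genes of glycosylation and maturation 0 passed in limma (1 higher and 0 lower at an unadjusted 0.05), and Poglut1, which adds glucose to the receptor, was at 0.04 (adjusted p = 0.76). The call of Numbl ended without couple 1 or 2 (adjusted p = 0.21 and 0.23) and after median centring of the arrays (0.085) or quantile normalization (0.079); that of Tle1 held in these fits but not without couple as a term (0.086).

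Of 6 further ligands and receptors with a probe set 2 were tested. Dll4, a Delta ligand best known from blood vessels, rose from 45.6, 51.6 and 32.9 with vehicle to 156, 134 and 120.02 with corticosterone, opposite in sign to Dll1 and Dll3. The groups did not overlap, and the log2 difference was 1.20 ± 0.19 (SE; limma adjusted p = 0.0015), with 1.32, 1.02 and 1.27 in the couples. Its vehicle signals lay under the filter signal of 63.6, so that it was tested because of its corticosterone arrays, and under a filter that drops the lowest 60% it was not tested. The call of Dll4 therefore gives no separate support for a rise, nor does the fit without couple as a term (limma adjusted p = 0.019). Dll4 has 2 probe sets, and the dimmer was not among those that passed. Whether the dimmer lay above the filter and was tested is not given here. Summed endothelial markers were 201 to 288 with vehicle and 278 to 434 with corticosterone; their part in the rise of Dll4 was not tested. Cntn1, an adhesion molecule that can bind Notch, was at −0.42 (limma adjusted p = 0.058). It passed as lower with median centring (−0.53, adjusted p = 0.023) and quantile normalization (−0.46, adjusted p = 0.039), and was at −0.22 without couple 1. Notch4, Jag2, Dlk1 and Dlk2 lay below the filter, at 3.92 to 88.4.

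Of 6 tested genes among the further Hes and Hey genes and their relatives 2 rose. Hes6, which counteracts Hes1 and favours neuronal differentiation, rose a little, from 3463, 3759.9 and 2892 to 4067, 4392 and 3282 (0.21 ± 0.06, SE; limma adjusted p = 0.037), and the call ended with any 1 couple left out (adjusted p from 0.076 to 0.19) and after median centring (0.10, adjusted p = 0.29). Bhlhe41, a repressor of the same protein superfamily known from the circadian clock and not a core Notch gene, rose from 94.2, 118 and 57.0 to 305, 377 and 201 (1.45 ± 0.14, adjusted p = 8.5e-05), also without couple as a term (adjusted p = 0.029). Nrarp, a Notch target that feeds back on the receptor, read 948, 1954 and 1269.6 with vehicle and 758, 1337 and 1373 with corticosterone (−0.25, adjusted p = 0.16), and passed as lower without couple 3 (−0.43, adjusted p = 0.017). Hes2 and Hes3 were at or under background on all 6 arrays. The proneural genes that Hes proteins repress were mostly dim: of 5 with a probe set 4 lay below the filter, Neurog2 among them at 4.38 to 38.9, and Neurod6 was at −0.03 (adjusted p = 0.92).

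**Figure D4:**
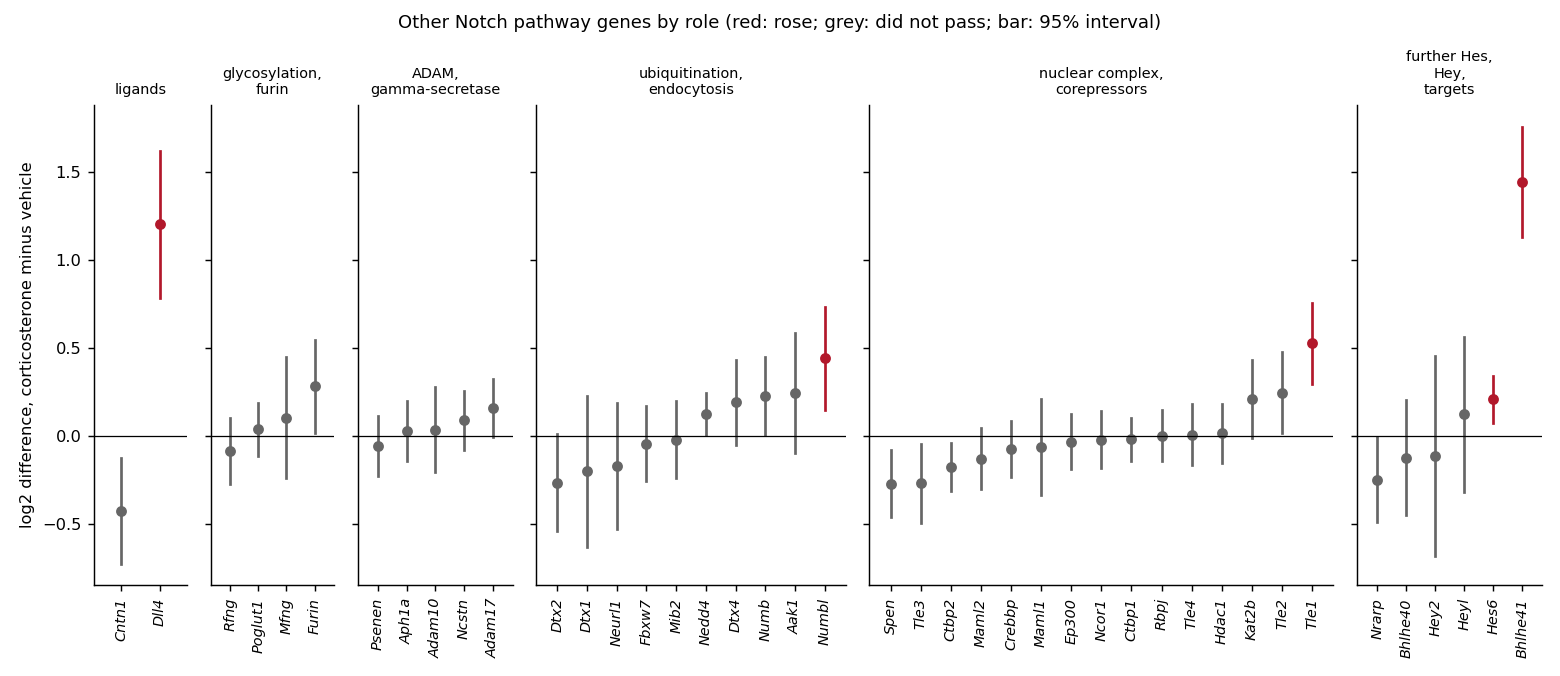
Log2 difference, corticosterone minus vehicle, with its 95% interval, of the 42 further Notch pathway genes tested, grouped by role along the horizontal axis. Dll4, Numbl, Tle1, Hes6 and Bhlhe41 (red) rose, and the other 37 (grey) lie between −0.42 and 0.28.

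The genes with the pattern most like that of Lfng over the 6 arrays, of 9900 compared by Pearson correlation of log2 signals, were Sipa1l3 (0.998), Efr3b (0.997) and Cx3cl1 (0.993). Of these Cx3cl1, the chemokine fractalkine, passed as higher (0.72, limma adjusted p = 0.0025), and Sipa1l3 and Efr3b did not (0.44 and 0.30, adjusted p = 0.081 and 0.097). For Dll3 they were Rpl14 (0.991), Spef1 (0.988) and Polr1f (0.987), none of which passed (adjusted p = 0.35, 0.14 and 0.060). These correlations describe 6 arrays that share their scaling and their couples, and 317 genes had a correlation over 0.9 with Lfng and 204 with Dll3.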

How the data were processed

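Expression was measured on 1-colour Affymetrix arrays in 6 samples. The authors deposited linear MAS5 intensities, 1 per probe set, per the submitters' processing notes; MAS5 settings were not stated. The 57 control probe sets were left out. Signals became log2(signal + 28.6), where 28.6 is the 25th percentile of all values. The dimmest 40% of probe sets by mean log2 signal were dropped (under a signal of 63.6), leaving 18625. Background (22.8) is the 95th percentile over 27 bacterial controls. The fit used limma 3.58.1 in R 4.3.3 (eBayes with an intensity trend; treatment and couple as terms), with Benjamini-Hochberg adjusted p-values and two-sided tests; the script was tested on simulated data. The number of arrays limits the precision. The series text pairs the samples into couples. Deviations from group means correlated by 0.57, 0.52 and 0.35 for equal numbers and by −0.48 to 0.003 for unequal ones. Deviations within a group cancel, so the low or negative values for unequal numbers partly follow from those for equal numbers. For each gene the probe set with the highest mean log2 signal stood. Genes named are all members, list genes that passed, up to 3 per list with the highest mean signal that did not, a few below the filter, and the 3 genes most correlated with the largest rise and fall. Mfng and Rfng were added after their values were seen. Members and lists were chosen with earlier results of these data known. Start windows are RefSeq's, build GRCr8; no genome build was used for the array. Alternatives concern the couple term, pseudocount, filter, scaling, intensity trend, probe set choice and each couple left out.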

Additional observations from a re-analysis of the deposited data

How the results depend on the processing

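The number of the 10 Notch members that passed was 5 with either other pseudocount (1 or 100), a stricter filter, quantile normalization, median centring or any probe set, and 4 with no filter. It was 0 without the replicate block (couple as a term), 1 without the intensity trend, and 3 to 5 with a couple left out. The number of further pathway genes was 2 without the replicate block and 3 with no filter, with the stricter filter or without the intensity trend, 3 to 6 with a couple left out, and 6 with quantile normalization (5 higher and 1 lower). Over all probe sets 2953 passed, 417 without the replicate block, 1862 with no filter, 1262 without the intensity trend, and 1192 to 2807 with a couple left out. Median centring moved the median log2 difference of all probe sets tested to −0.11 from −0.004, and the share of higher calls to 30.4% from 59.3%; the further pathway genes then held 3 higher and 4 lower. Among values that did not pass, signs turned for Hes1 with median centring (−0.099), quantile normalization (−0.0062) and couples left out (−0.25 to 0.24), for the second Notch1 probe set (−0.069 with centring, −0.058 to 0.19), Notch3 (−0.12 to 0.64), Hes5 (−0.30 to 0.19), Psenen (−0.13 to 0.017), Rbpj (−0.10 with centring, −0.033 to 0.021), Neurod6 (−0.14 to 0.045), Poglut1 (−0.068 with centring) and Ctbp1 (0.017 with quantile normalization). The cause was not tested. Among the genes followed through these settings, the stricter filter dropped Notch2, Notch3, Hes5, Dll4, Bhlhe41, Neurod6, Col1a2 and Cd14. They have no value there.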
